A study of Mus musculus with 14 samples.

Results

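The genes described here are 38 endothelial and vascular genes, listed by name: 19 pan-endothelial genes and 19 genes of arterial Notch signaling, the apelin and angiopoietin pathways, tip cells, venous activation and pericytes. Each of the 38 had 1 row among the 49315 genes of the count table, and all 38 were among the 15292 genes kept for testing. RNA was taken from the left ventricle of male mice that had Sham surgery or transverse aortic constriction (TAC), a narrowing of the aorta that loads the left ventricle with pressure, at an age of 10 to 12 weeks, and the tissue was collected 5 weeks later. The HCN4F line is a knock-in in which 1 tyrosine of the pacemaker channel HCN4 is exchanged for phenylalanine, and it was compared with wild-type (WT) mice. The groups were WT-Sham (n = 4), HCN4F-Sham (n = 4), WT-TAC (n = 2, replicates 2 and 3) and HCN4F-TAC (n = 4), with 1 mRNA library per sample. The knock-in is present in every cell type, and no cells were sorted, so each library holds cardiomyocytes, fibroblasts, blood cells and vessels together. In such bulk tissue, fewer cells of a type and less RNA per cell cannot be told apart.

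Endothelial cells line every vessel of the heart, and the capillaries among them run beside each cardiomyocyte. They are held together by junction proteins, keep their identity through ETS and SOX transcription factors, and answer to VEGF, angiopoietins and Notch ligands. During vessel growth, tip cells lead the sprout, Notch signaling holds back the cells behind them and favours an arterial state, and pericytes are drawn in by PDGF-B. Activated venous endothelium carries selectins and adhesion molecules that slow and hold leukocytes. The list is not exclusive to endothelium. Pdgfrb and Rgs5 mark pericytes, Hey2 is also made by ventricular cardiomyocytes, and Vcam1, Icam1 and Angpt1 are made by other cells of the heart as well.

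The libraries held 22309914 to 35210939 counted reads each. CPM below are read counts scaled to library size with TMM factors, and a fitted log2 fold change is given with its standard error (SE) and 95% confidence interval. A gene is said to pass, to rise or to fall where edgeR's quasi-likelihood test gave an adjusted p under 0.05, by the Benjamini-Hochberg method over the 15292 genes. In the HCN4F-Sham group replicate 1 was the lowest library in 30 of the 38 genes and replicate 2 the highest in 30. The main results that change with these 2 libraries are given with and without them. HCN4F-TAC replicate 2 held atrial transcripts: Myl7, the atrial myosin light chain, was at 9.91 CPM there and at most 0.694 CPM in the other 13 libraries.

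The promoters of 4 members are shown because the results turn on these genes: Hey2 and Esm1 passed in HCN4F after TAC, Cldn5 had the largest differences among the pan-endothelial genes, and Eng stands for the pan-endothelial genes that moved together between libraries. Each sequence is the stretch before the start site in RefSeq on GRCm38.p6, up to 250 bases, 5′ to 3′ on the strand of the gene. Capitals mark matches to the core letters bound by RBPJ, the DNA-binding partner of Notch (TGGGAA), or to an ETS core (AGGAAG), on either strand.
Hey2: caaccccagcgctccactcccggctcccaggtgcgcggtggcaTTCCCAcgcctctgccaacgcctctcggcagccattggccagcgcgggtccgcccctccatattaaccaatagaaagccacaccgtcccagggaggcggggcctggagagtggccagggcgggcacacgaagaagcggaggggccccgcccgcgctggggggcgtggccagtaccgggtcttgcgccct
Esm1: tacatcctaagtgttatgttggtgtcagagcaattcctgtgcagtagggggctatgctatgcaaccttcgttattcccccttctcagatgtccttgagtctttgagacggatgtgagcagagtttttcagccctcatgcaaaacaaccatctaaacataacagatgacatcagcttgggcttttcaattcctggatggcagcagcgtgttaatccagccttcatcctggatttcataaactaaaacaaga
Cldn5: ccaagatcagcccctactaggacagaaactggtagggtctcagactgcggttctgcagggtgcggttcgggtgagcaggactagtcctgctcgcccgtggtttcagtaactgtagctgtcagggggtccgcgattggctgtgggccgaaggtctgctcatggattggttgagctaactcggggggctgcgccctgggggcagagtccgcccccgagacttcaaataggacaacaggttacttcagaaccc
Eng: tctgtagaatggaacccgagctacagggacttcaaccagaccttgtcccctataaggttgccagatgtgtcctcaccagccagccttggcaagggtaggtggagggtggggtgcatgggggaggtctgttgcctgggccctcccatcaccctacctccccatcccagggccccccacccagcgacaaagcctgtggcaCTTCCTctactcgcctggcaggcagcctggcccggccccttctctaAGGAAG

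The windows lie at chr10:30842802-30843033 (Hey2, minus strand), chr13:113209409-113209658 (Esm1, plus strand), chr16:18776597-18776846 (Cldn5, plus strand) and chr2:32646345-32646594 (Eng, plus strand). The Hey2 window was cut to 232 bases, leaving out the 18 bases next to the RefSeq start site, which an annotated exon covers, and the Esm1 window lies within the annotated span of another gene, Gzmk. Counted from the RefSeq start site, Hey2 had an RBPJ core match at positions -207 to -202, and Eng had ETS core matches at -52 to -47 and at -6 to -1. The windows of Esm1 and Cldn5 held neither set of letters. Of the 38 members, 19 had an entry in the promoter table, with 23 windows. The RBPJ core was in 5 of these 23 windows (21.7%), against 21.6% of all 32851 windows of the same length. The ETS core was in 10 of the 23 (43.5%), those of Apln, Egfl7, Emcn, Eng, Erg, Robo4, Sele, Selp and Tie1, against 29.5% of all windows. A match is a description of letters only, and no binding was measured.

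The defining endothelial markers were well counted in every library, from 4021 to 7731 counts for Pecam1, a junction protein of all endothelial cells, and from 4636 to 9056 for Cdh5, which encodes VE-cadherin. Per kilobase of annotated exon, the highest mean levels in WT-Sham were those of Rgs5, a pericyte gene, with 108 CPM per kilobase, Cdh5 with 54.9, the TGF-beta co-receptor Eng with 49.6 and the transcription factor Sox18 with 36.1 CPM per kilobase. The lowest were those of Hey2 with 0.834, Esm1 with 0.429, and the selectins Sele with 0.223 and Selp with 0.067 CPM per kilobase. Rgs5, Cdh5 and Eng kept places 1 to 3 of the 38 in all 4 groups. The junction gene Cldn5 was at place 9 in WT-Sham and at place 4 in each of the other groups, and Plvap, a protein of the diaphragms of fenestrated capillaries and veins, was at place 22 in WT-Sham and 31 in WT-TAC. Selp rested on 4 to 26 counts per library, Sele on 10 to 76 and Esm1 on 16 to 102, so their values carry the most counting error.

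**Figure D1:**
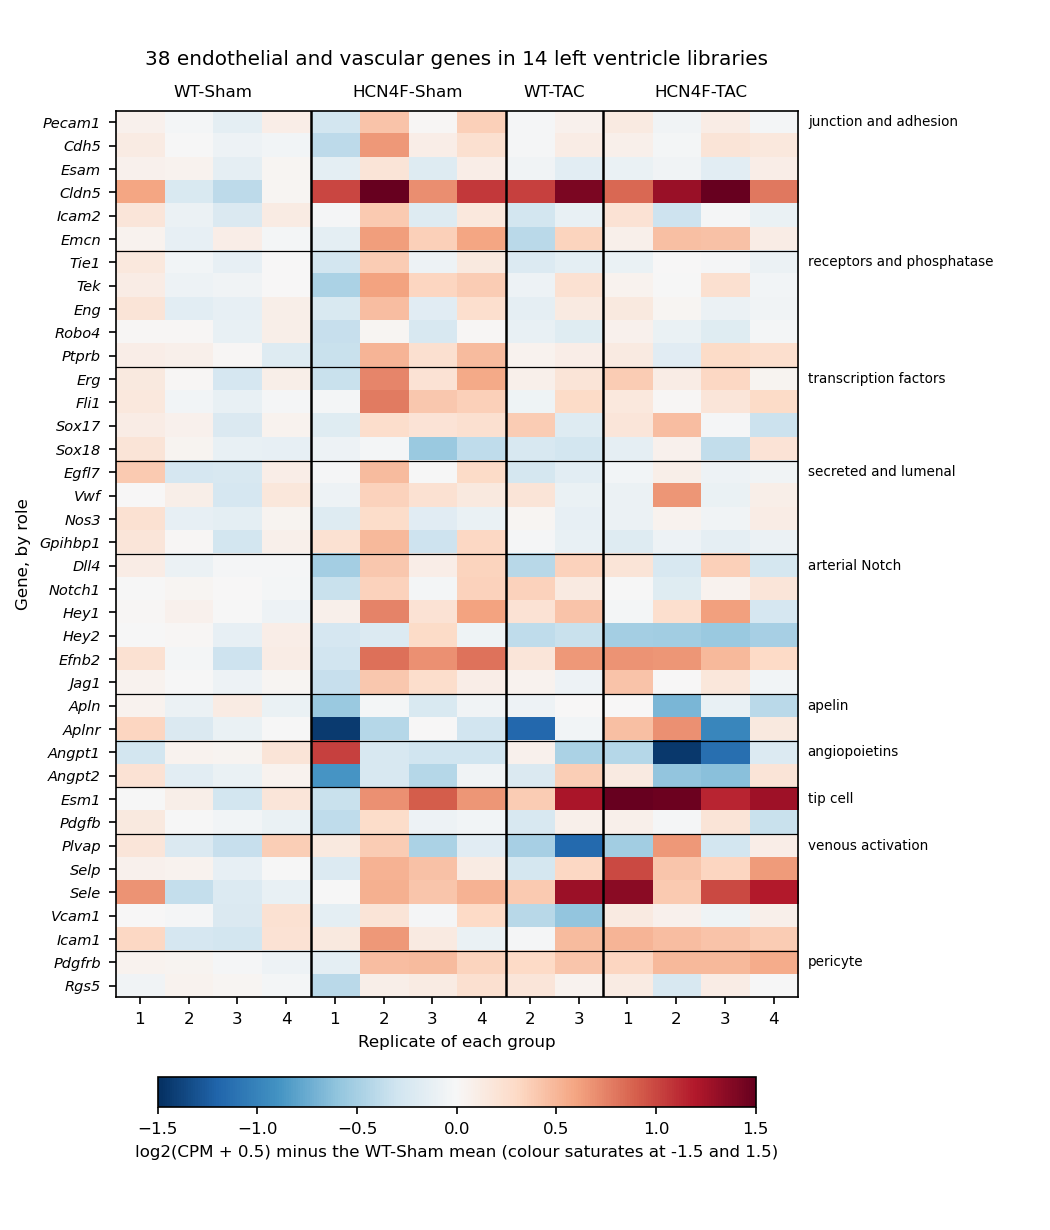
Colour shows log2(CPM + 0.5) minus the WT-Sham mean for the 38 genes (rows, by role) in the 14 libraries (columns, by group and replicate), with red for higher and blue for lower. Cldn5 is red in all 10 libraries outside WT-Sham, Hey2 is blue in all 6 TAC libraries, Esm1 is red in all 6 TAC libraries, and HCN4F-Sham replicate 1 is mostly blue where replicate 2 is mostly red.

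Few of the 38 genes passed in any comparison. After TAC in HCN4F, 2 of 38 passed, where 13.6% of all tested genes did. These were Esm1, which rose, as did 7.2% of all genes, and Hey2, which fell, as did 6.41%. The median log2 fold change of the 38 was -0.04 beside -0.01 over all tested genes. After TAC in WT, 1 of 38 passed (Vcam1, which fell), where 4.54% of all tested genes did and 1.62% fell, with a median of 0.02 beside -0.02. Between HCN4F-Sham and WT-Sham 0 of 38 passed in edgeR's quasi-likelihood test, where 0.471% of all genes did, with a median of 0.15 beside 0.00. At an unadjusted p under 0.05 there were 7 of 38, beside 15.2% of all genes. DESeq2 on all groups called 1, Cldn5, beside 2.24% of all genes. Between HCN4F-TAC and WT-TAC 0 of 38 passed in edgeR, where 0.111% of all genes did, with a median of 0.06 beside 0.00. At an unadjusted p under 0.05 there were 3 of 38, beside 12.5% of all genes, and DESeq2 called 1, Vcam1, beside 1.63%. In the test of the genotype by surgery interaction 0 of 38 passed, as did 0.0% of all genes, and 4 of 38 had an unadjusted p under 0.05 beside 9.27% of all genes. DESeq2 called 0 of the 37 members it tested for the interaction, beside 0.246% of all genes. After TAC, DESeq2 called Esm1 and Hey2 in HCN4F, beside 15.8% of all genes, and Cldn5, Esm1 and Vcam1 in WT, beside 8.66%. At an unadjusted p under 0.05 in edgeR, 5 of 38 were found after TAC in HCN4F and 7 of 38 in WT, beside 28.3% and 22% of all genes.

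With a log2 fold change past 1 required as well, 0 of 38 members passed in the main edgeR fit in any of the 4 comparisons. With DESeq2 on all groups, Esm1 passed this threshold after TAC in HCN4F (2.83% of all genes did), Cldn5 and Esm1 after TAC in WT (0.992%) and Cldn5 between the Sham groups (0.484%). In edgeR the share of all genes past that threshold was 2.75% after TAC in HCN4F, 0.706% after TAC in WT, 0.209% between the Sham groups and 0.0719% between the TAC groups. Groups without overlap were found for 2 of 38 members after TAC in HCN4F (15.1% of all genes), 11 after TAC in WT (39.2%), 2 between the Sham groups (8.56%, of which 4.67 percentage points lower) and 5 between the TAC groups (22.2%). The large shares go with the 2 WT-TAC libraries.

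**Figure D2:**
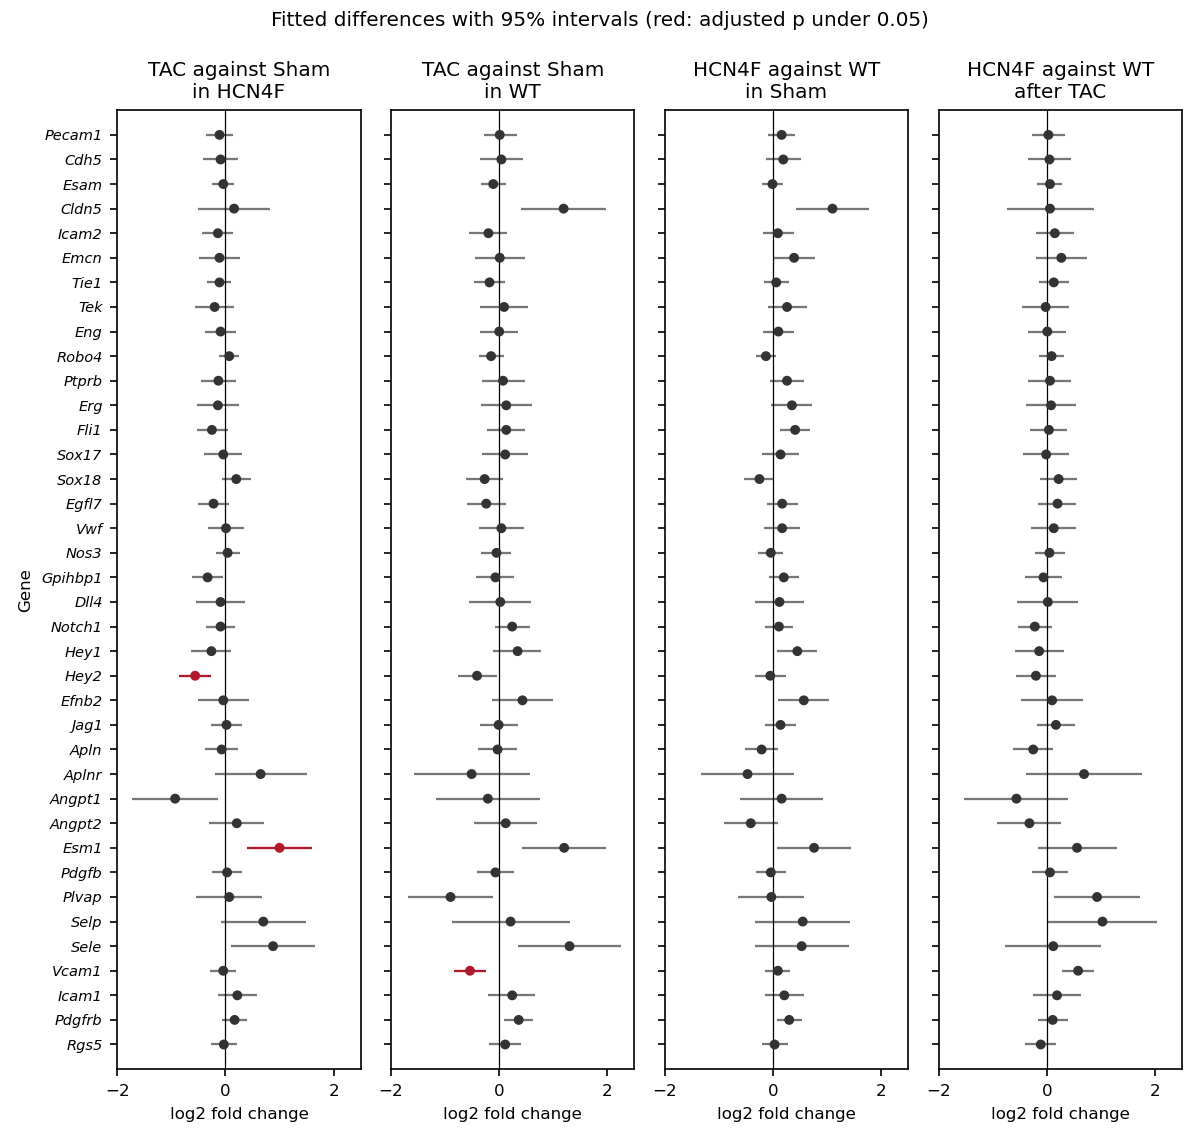
Points are the fitted log2 fold changes of the 38 genes and lines their 95% confidence intervals in the 4 comparisons, with red where the adjusted p was under 0.05. Red appears for Hey2 and Esm1 in TAC against Sham in HCN4F and for Vcam1 in TAC against Sham in WT, and the intervals are widest for Selp, Sele, Aplnr and Angpt1.

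The median of the 19 pan-endothelial genes lay close to the WT-Sham level in all TAC libraries, while Cldn5, 1 of the 19, was higher in each of them. The score used here is the median over the 19 genes of log2(CPM + 0.5) minus the WT-Sham mean. It ran from -0.14 to 0.14 in WT-Sham, from -0.18 to 0.46 in HCN4F-Sham and from -0.02 to 0.07 in HCN4F-TAC, and was -0.05 and -0.10 in the WT-TAC libraries. All TAC libraries were thus within the range of WT-Sham. The median log2 fold change of the 19 was -0.11 after TAC in HCN4F, 0.01 after TAC in WT, 0.17 between the Sham groups and 0.06 between the TAC groups. None of the 19 passed in the main edgeR fit. Without HCN4F-Sham replicate 1, 2 or both, the median between the Sham groups was 0.24, 0.07 or 0.16 and that after TAC in HCN4F -0.21, 0.01 or -0.09. Of the 19, 4 passed as higher between the Sham groups and 2 as lower after TAC in HCN4F without replicate 1, and 1 as higher between the Sham groups without both. Of all genes, 2.01% passed as higher between the Sham groups without replicate 1. In either direction, 13.6% passed after TAC in HCN4F without replicate 1 and 4.64% between the Sham groups without both. The 95% interval lay between -1 and 1 for all 19 after TAC in HCN4F and for 18 of 19 after TAC in WT, with Cldn5 the exception.

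The spread of these genes between libraries was largest in HCN4F-Sham. Their median coefficient of variation was 21.4% in HCN4F-Sham, 10.2% in WT-Sham, 7.92% in HCN4F-TAC and 5.93% in WT-TAC. HCN4F-Sham replicate 2 was the highest of the 4 libraries of its group in 19 of 19 pan-endothelial genes and the highest of all 14 libraries in 14 of them. HCN4F-Sham replicate 1 was the lowest of its group in 14 of 19 and the lowest of all 14 libraries in 9. Over all 38 genes, replicate 1 was the lowest of its group in 30. Cdh5 shows the pattern: it was at 175, 361, 246 and 273 CPM in HCN4F-Sham replicates 1 to 4 and at 219 to 251 CPM in the WT-Sham libraries. Replicate 1 lay below and replicate 2 above every other library.

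Other transcripts separated the same HCN4F-Sham libraries. The clock genes Arntl and Dbp, chosen after their values were seen, were at 14.9 and 10.5 CPM in replicate 1. Arntl was at 5.11, 1.77 and 1.54 CPM and Dbp at 99.3, 147 and 107 CPM in replicates 2 to 4. In WT-Sham, Arntl was at 12.8 to 15.6 CPM and Dbp at 14.3 to 32.5 CPM, so replicate 1 was near the WT-Sham libraries in Arntl and below them in Dbp. In replicate 2 the 12 cardiomyocyte markers summed to 84489 CPM, the lowest of the group, and the 12 fibroblast markers to 2381 CPM, the highest, beside 92949 and 1803 CPM in replicate 1. Mitochondrial transcripts made up 17.1% of the counts in replicate 1 and 20.2 to 21.4% in replicates 2 to 4, beside 19.6 to 23.1% in WT-Sham. After TAC their share was 13.9 to 18.6% in HCN4F, lowest in replicate 2, and 18.4% and 20% in WT. The part of these differences in the endothelial values was not tested.

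**Figure D3:**
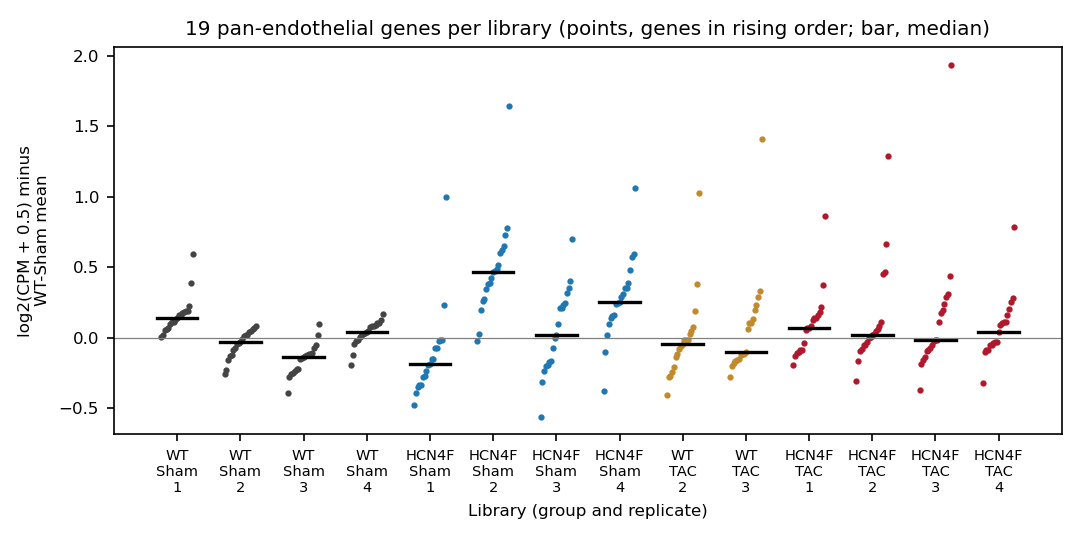
Points are the 19 pan-endothelial genes in each of the 14 libraries as log2(CPM + 0.5) minus the WT-Sham mean, and the bar is their median. The bars of HCN4F-Sham replicates 1 and 2 lie lowest and highest of all, at -0.18 and 0.46, and the isolated high point in the libraries outside WT-Sham is Cldn5.

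Among the junction and adhesion genes, Cldn5 moved apart from the other 5. It encodes claudin-5, the tight junction protein of endothelium, and lies at chr16:18776847-18778262 (GRCm38, plus strand). Its values were 43.1, 24.1, 21.5 and 28.9 CPM in WT-Sham and 57.2, 89.5, 46.3 and 59.7 CPM in HCN4F-Sham. In WT-TAC it was at 58.3 and 76.1 CPM and in HCN4F-TAC at 52.0, 70.1, 110 and 49.3 CPM. All 4 WT-Sham libraries lay below every library of the other groups. Groups without overlap, the first higher, were found for 3.89% of all genes between the Sham groups and for 19.2% after TAC in WT.

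The fitted log2 fold change of Cldn5 was 1.19 after TAC in WT (SE 0.36, interval 0.41 to 1.98, edgeR adjusted p = 0.0848). Between the Sham groups it was 1.1 (SE 0.31, interval 0.43 to 1.77, edgeR adjusted p = 0.136). These 2 comparisons share the WT-Sham libraries. Neither passed in the main edgeR fit, while DESeq2 on all groups gave adjusted p = 0.0285 after TAC in WT and 0.0307 between the Sham groups. After TAC in WT it also passed without HCN4F-TAC replicate 3 (edgeR adjusted p = 0.0446) and with non-robust estimation in edgeR (0.0401). It passed with DESeq2 on the compared groups after TAC in WT (0.00751) and between the Sham groups (0.0159). Of 23 alternatives, 4 passed after TAC in WT and 2 between the Sham groups. After TAC in HCN4F the difference was 0.16 (interval -0.50 to 0.82), and between the TAC groups 0.06 (interval -0.74 to 0.87). The interaction was -1.04 (SE 0.47, unadjusted p = 0.0496, edgeR adjusted p = 0.537).

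Immediate early genes, which respond within minutes to stimulation and also to tissue handling, were, like Cldn5, higher in the other groups than in WT-Sham. Egr1, a zinc finger transcription factor of this class, was at 9.56 to 18.5 CPM in WT-Sham, 109 to 206 CPM in HCN4F-Sham, 124 and 187 CPM in WT-TAC and 150 to 257 CPM in HCN4F-TAC. The 15 genes of the list summed to 396.1 to 441 CPM in WT-Sham, 539 to 855 CPM in HCN4F-Sham, 668 and 899.8 CPM in WT-TAC and 807 to 1147 CPM in HCN4F-TAC. Of the 15, 7 passed as higher after TAC in WT, 5 between the Sham groups and 6 after TAC in HCN4F, with 0 lower in edgeR in each. Of all genes, 4.54%, 0.471% and 13.6% passed in these comparisons, in either direction. By these sums, the order of the libraries was that of Cldn5 within HCN4F-TAC and not within the other groups. In HCN4F-TAC replicates 1 to 4 the sums were 807.8, 1038.4, 1147.3 and 806.7 CPM, and Cldn5 was highest in replicate 3. Cldn5 had a log2 fold change of 0.16 after TAC in HCN4F. In HCN4F-Sham replicate 2 both the sum, 855 CPM, and Cldn5 were the highest of their group. In HCN4F-Sham replicate 3 the median score of the 15 genes, formed as for the pan-endothelial genes, was 1.26, the highest of its group, and Cldn5 was the lowest of its group. Whether these genes have a part in the Cldn5 values was not tested. The other junction genes, Pecam1, Cdh5, Esam, Icam2 and Emcn, had log2 fold changes of -0.14 to -0.04 after TAC in HCN4F, -0.20 to 0.04 after TAC in WT and -0.01 to 0.39 between the Sham groups, and none passed.

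The receptors of the list are Tek, the angiopoietin receptor, its partner Tie1, the guidance receptor Robo4, Eng and the phosphatase Ptprb, which acts on Tek and VE-cadherin. None of the 5 passed in any of the 4 comparisons, with log2 fold changes of -0.20 to 0.07 after TAC in HCN4F and -0.18 to 0.09 after TAC in WT. Tek was at 54.3 to 61.6 CPM in WT-Sham, 54.1 and 67.1 CPM in WT-TAC and 55.5 to 67.3 CPM in HCN4F-TAC. In HCN4F-Sham replicates 1 to 4 it was at 40.9, 87.0, 71.4 and 74.7 CPM. Replicate 1 lay below and replicates 2 to 4 above all the other libraries.

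The transcription factors Erg and Fli1, both of the ETS family, and Sox17 and Sox18 keep endothelial identity and arterial or lymphatic fate. Fli1 (chr9:32422204-32542861, minus strand) had the second smallest p between the Sham groups. It was at 27.5, 23.9, 22.6 and 24.3 CPM in WT-Sham and at 24.1, 42.5, 32.6 and 31.5 CPM in HCN4F-Sham. Replicates 2 to 4 of HCN4F-Sham were above every WT-Sham library and replicate 1 was among them. The difference was 0.41 on the log2 scale (SE 0.13, interval 0.13 to 0.69, edgeR adjusted p = 0.168), and 0.26 without replicate 2 (adjusted p = 0.288) and 0.53 without replicate 1 (0.0185). In WT-TAC Fli1 was at 23.5 and 30 CPM and in HCN4F-TAC at 27.5, 24.8, 27.8 and 29.9 CPM, within or just above the WT-Sham range. Fli1, Robo4, Esam and Icam1 lie on chromosome 9, which also carries the altered Hcn4 gene. Among these, Robo4 was -0.13 (interval -0.31 to 0.05), Esam -0.01 (interval -0.20 to 0.18) and Icam1 0.21 (interval -0.15 to 0.57) between the Sham groups.

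Sox18 (chr2:181669836-181671640, minus strand) had the second smallest p for the interaction. It was at 66.5, 60.1, 54.0 and 53.5 CPM in WT-Sham, 49.1 and 47.9 CPM in WT-TAC, 55.4, 57.3, 39.4 and 44.8 CPM in HCN4F-Sham and 53.2, 60.9, 44.9 and 67.2 CPM in HCN4F-TAC. The WT-TAC libraries were below all WT-Sham libraries, as for 20% of all genes, while the HCN4F groups overlapped. The interaction was 0.47 (SE 0.21, interval 0.04 to 0.91, edgeR adjusted p = 0.506). Sox17 and Erg did not pass in any comparison in edgeR on all groups and libraries. Sox17 was between -0.04 and 0.14 and Erg between -0.14 and 0.35 on the log2 scale over the 4 comparisons.

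The secreted and lumenal genes are Egfl7, an endothelial matrix protein, Vwf, the von Willebrand factor, Nos3, the endothelial nitric oxide synthase, and Gpihbp1, which carries lipoprotein lipase to the capillary lumen. None passed in any comparison. Gpihbp1 was at 91.3, 109, 62.3 and 96.4 CPM in HCN4F-Sham and at 67.7 to 73.5 CPM in HCN4F-TAC, a log2 fold change of -0.33 (SE 0.13, interval -0.61 to -0.05, edgeR adjusted p = 0.11). HCN4F-Sham replicate 3 was below all HCN4F-TAC libraries and the other 3 above them, and without replicate 3 the fold change was -0.48 with an edgeR adjusted p of 0.00431. It was -0.23 without replicate 2, and -0.16 (adjusted p = 0.537) without replicates 1 and 2 together. Nos3 was within -0.05 to 0.05 on the log2 scale in all 4 comparisons, with intervals between -0.33 and 0.33. Exons of Nos3 share 25.2% of their bases with the antisense gene Gm15587, which was at 0.415 to 0.998 CPM, and the use of strand is not given in the sources used here.

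Of the arterial Notch genes, Hey2 fell after TAC in HCN4F. Dll4 and Jag1 are ligands, Notch1 is the receptor, Hey1 and Hey2 are transcriptional repressors switched on by Notch, and Efnb2, ephrin-B2, marks arterial endothelium. Hey2 (chr10:30832359-30842801, minus strand) was at 3.12, 3.24, 4.77 and 3.62 CPM in HCN4F-Sham and at 2.53, 2.5, 2.44 and 2.56 CPM in HCN4F-TAC. It was at 3.81, 3.88, 3.48 and 4.15 CPM in WT-Sham and at 2.83 and 2.92 CPM in WT-TAC. In both genotypes every TAC library was below every Sham library, as was found for 7.16% of all genes in HCN4F and 20% in WT.

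The log2 fold change of Hey2 after TAC was -0.56 in HCN4F (SE 0.14, interval -0.86 to -0.26, edgeR adjusted p = 0.0144). It remained under the threshold in all 23 alternatives, with adjusted p from 0.00804 to 0.0496. In WT it was -0.41 (SE 0.17, interval -0.77 to -0.05, edgeR adjusted p = 0.169). The interaction was -0.15 (interval -0.62 to 0.32, edgeR adjusted p = 0.879), so a difference between the genotypes in this response was not detectable. The 12 cardiomyocyte markers summed to 84489 to 92949 CPM in HCN4F-Sham and to 68112 to 80880 CPM in HCN4F-TAC. Of the 12, 4 passed as lower and 2 as higher, where 6.41% and 7.2% of all genes did. In WT, where Hey2 was also lower after TAC, they summed to 92545 to 93144.8 CPM in WT-Sham. In WT-TAC they summed to 90962 and 89953.9 CPM. Their part in the Hey2 values was not tested.

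The paralog Hey1 did not pass in any comparison in edgeR on all groups. It was at 13.0 to 14.5 CPM in WT-Sham and at 14.6, 23.5, 16.1 and 21.3 CPM in HCN4F-Sham. These groups did not overlap, as for 3.89% of all genes in this direction. The log2 fold change was 0.45 (SE 0.17, interval 0.08 to 0.82, edgeR adjusted p = 0.243), and 0.55 without replicate 1 and 0.33 without replicate 2. After TAC in WT it was 0.34 (interval -0.11 to 0.78), and after TAC in HCN4F -0.26 (interval -0.63 to 0.11), or -0.14 without HCN4F-Sham replicate 2. The WT difference passed in 2 of 23 alternatives, the fits on the compared groups alone by edgeR and DESeq2. Efnb2 was at 24.2 to 35.3 CPM in WT-Sham and at 24.7, 53.9, 48.9 and 53.4 CPM in HCN4F-Sham, where replicate 1 alone was within the WT-Sham range. Its difference between the Sham groups was 0.57 (SE 0.22, interval 0.10 to 1.04, edgeR adjusted p = 0.242). Dll4 was at 31.2 to 35.9 CPM in WT-Sham and 24.6 and 42.2 CPM in WT-TAC, and its interval was -0.55 to 0.58 there. Notch1 was at 73.4 to 76.4 CPM in WT-Sham and at 94.9 and 82.0 CPM in WT-TAC, 0.24 higher on the log2 scale (interval -0.08 to 0.56, edgeR adjusted p = 0.364), and passed in the same 2 alternatives as Hey1. Jag1 was between -0.01 and 0.17 in the 4 comparisons.

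Apelin (Apln), a peptide of growing and hypoxic endothelium, and its receptor Aplnr did not pass in any comparison. Aplnr was the more variable of the pair. It was at 23.4 to 34.5 CPM in WT-Sham, 9.79 to 27.5 CPM in HCN4F-Sham, 11.8 and 26.7 CPM in WT-TAC and 37.5, 44.3, 13.7 and 30.3 CPM in HCN4F-TAC, and all groups overlapped. Its log2 fold change was 0.65 after TAC in HCN4F (interval -0.20 to 1.51), -0.51 after TAC in WT (interval -1.57 to 0.56), -0.47 between the Sham groups (interval -1.33 to 0.39) and 0.69 between the TAC groups (interval -0.38 to 1.76). Leaving out replicate 2 or 3 of WT-TAC moved it to 0.23 or 1.42 between the TAC groups and to -0.05 or -1.23 after TAC in WT. Leaving out HCN4F-Sham replicate 1 moved it to -0.24 between the Sham groups and to 0.43 after TAC in HCN4F. Over the alternatives it ran from -0.66 to -0.16 between the Sham groups and from 0.34 to 0.91 after TAC in HCN4F. The interaction was 1.16 (SE 0.62, edgeR adjusted p = 0.605). Its highest value was in HCN4F-TAC replicate 2, the library with atrial transcripts, as was that of Vwf with 88.5 CPM and of Plvap with 16.5 CPM. The part of the atrial transcripts in these values was not tested. Apln was at 8.86 to 16.0 CPM over all libraries, with log2 fold changes between -0.25 and -0.03.

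The angiopoietins act on Tek, Angpt1 as the stabilizing ligand from mural and other perivascular cells and Angpt2 as the context-dependent antagonist from endothelium. Angpt1 was at 35.8 CPM in HCN4F-Sham replicate 1 and at 14.6, 14.1 and 14 CPM in replicates 2 to 4. In HCN4F-TAC it was at 12.8, 6.06, 7.70 and 15.0 CPM, in WT-Sham at 14.3 to 19.9 CPM and in WT-TAC at 18.2 and 12.4 CPM. Its log2 fold change after TAC in HCN4F was -0.93 (SE 0.36, interval -1.72 to -0.13, edgeR adjusted p = 0.118), and -0.46 without HCN4F-Sham replicate 1 (adjusted p = 0.264). Of its exon bases, 14.2% are shared with the antisense gene Gm17473, which was at 0.0822 to 0.572 CPM. Angpt2 was at 3.09 to 8.07 CPM over all libraries and lowest in HCN4F-Sham replicate 1.

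Esm1 was the member that rose after TAC in HCN4F. It encodes endocan, a proteoglycan secreted by tip cells, and lies at chr13:113209659-113218098 (plus strand). It was at 0.602, 1.73, 2.10 and 1.69 CPM in HCN4F-Sham and at 3.48, 3.36, 2.58 and 2.85 CPM in HCN4F-TAC, so that the groups did not overlap, as for 7.95% of all genes in this direction. In WT-Sham it was at 0.887, 0.979, 0.650 and 1.08 CPM and in WT-TAC at 1.31 and 2.75 CPM. These groups did not overlap either, as for 19.2% of all genes in this direction.

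The log2 fold change of Esm1 was 1.00 after TAC in HCN4F (SE 0.29, interval 0.39 to 1.6, edgeR adjusted p = 0.0284). It was 1.2 in WT (SE 0.36, interval 0.43 to 1.97, edgeR adjusted p = 0.0704), where it passed in 6 of 23 alternatives, among them DESeq2 on all groups (adjusted p = 0.0263). The WT value rests on 2 TAC libraries that differ: it was 0.54 without WT-TAC replicate 3 (adjusted p = 0.667) and 1.6 when replicate 2 was left out instead, each with a lone WT-TAC library that is assumed to vary like the other groups. The call in HCN4F was lost without HCN4F-Sham replicate 4 (adjusted p = 0.0505) and without HCN4F-TAC replicate 1 (0.0726), 2 (0.0792) or 4 (0.0504), while the fold change stayed between 0.93 and 1.05. It was also lost, at 0.70 with adjusted p = 0.116, without HCN4F-Sham replicates 1 and 2 together. The interaction was -0.20 (interval -1.18 to 0.78, edgeR adjusted p = 0.929). Between the TAC groups the difference was 0.56 (interval -0.16 to 1.29), which moved to 0.16 or 1.22 when replicate 2 or 3 of WT-TAC was left out, and between the Sham groups 0.76 (interval 0.08 to 1.44, edgeR adjusted p = 0.276). The other tip cell gene, Pdgfb, which recruits pericytes, was between -0.07 and 0.06 in the 4 comparisons.

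**Figure D4:**
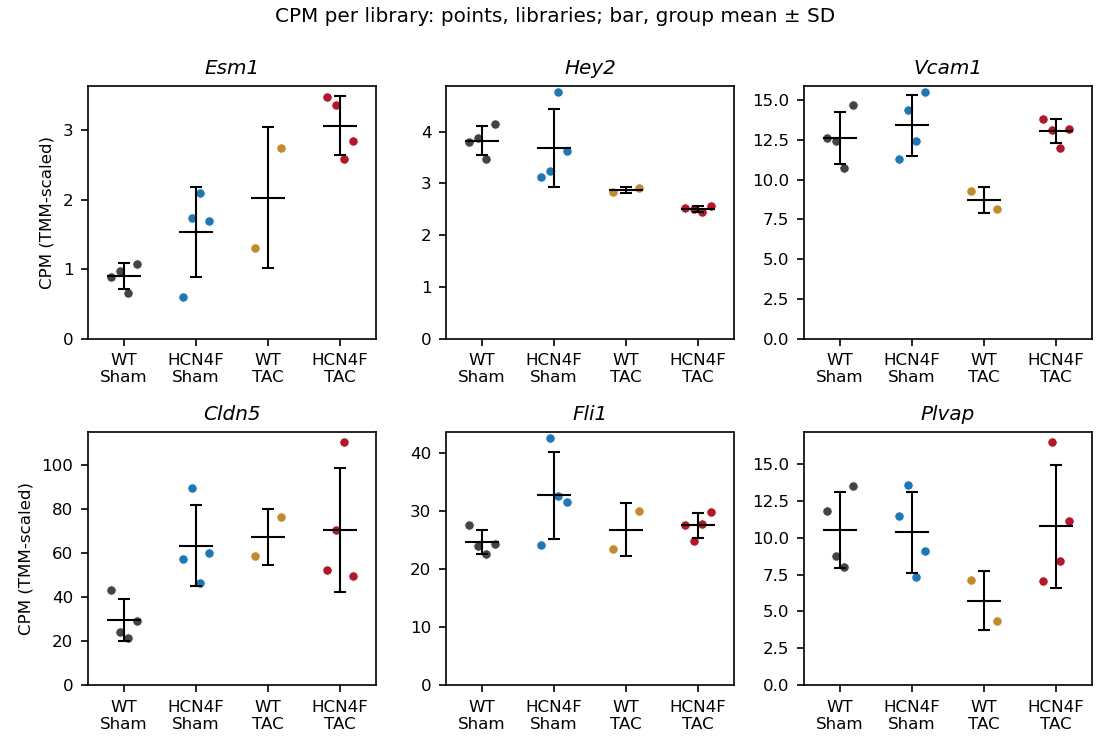
CPM per library (points) with the group mean ± SD (bars) for Esm1, Hey2, Vcam1, Cldn5, Fli1 and Plvap in the 4 groups. Esm1 lies between 2.58 and 3.48 CPM in HCN4F-TAC and Hey2 between 2.44 and 2.56 CPM, and the WT-TAC libraries of Vcam1, at 9.28 and 8.13 CPM, lie below all others.

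Of the genes of venous activation, Vcam1 fell after TAC in WT. Vcam1, the ligand of leukocyte integrins, lies at chr3:116109949-116129688 (minus strand). It was at 12.6, 12.4, 10.7 and 14.7 CPM in WT-Sham and 9.28 and 8.13 CPM in WT-TAC. In HCN4F-Sham it was at 11.3, 14.4, 12.4 and 15.5 CPM and in HCN4F-TAC at 13.8, 13.1, 12 and 13.2 CPM. Both WT-TAC libraries were below the other 12. Groups without overlap, with WT-TAC below WT-Sham, were found for 20% of all genes.

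The log2 fold change of Vcam1 after TAC in WT was -0.54 (SE 0.14, interval -0.84 to -0.24, edgeR adjusted p = 0.0408). This call rests on 2 WT-TAC libraries, and it was lost without any one of WT-Sham replicates 1, 2 or 4 or HCN4F-TAC replicates 1, 2 or 4, with adjusted p from 0.0504 to 0.114. It was also lost with the replicate number as a block (-0.47, adjusted p = 0.073). Without WT-TAC replicate 2 or 3 the adjusted p was 0.102 or 0.347, but 1 WT-TAC library then remains and its spread is taken from the other groups. In all of these the fold change stayed between -0.63 and -0.44. In HCN4F the difference was -0.04 (interval -0.28 to 0.19), and the interaction was 0.50 (SE 0.18, interval 0.12 to 0.88, edgeR adjusted p = 0.466). Between the TAC groups Vcam1 was 0.58 higher in HCN4F (SE 0.14, interval 0.28 to 0.88, edgeR adjusted p = 0.109). There DESeq2 on all groups gave an adjusted p of 0.0192, edgeR without a filter on low counts 0.0273 and edgeR without HCN4F-TAC replicate 3 0.032. It passed in 4 of 23 alternatives and not in the other 19, with adjusted p from 0.0179 to 0.472. Markers of other cell types were higher in HCN4F-TAC too. The 12 fibroblast markers had a median of 0.64 with 12 above 0, and the 13 macrophage and leukocyte markers tested a median of 0.38 with 13 above 0, beside 0.00 over all genes, and none of these markers passed in edgeR. The 14 macrophage and leukocyte markers summed to 207 to 327 CPM in HCN4F-TAC and to 199.7 and 215 CPM in WT-TAC, and the fibroblast markers to 2105 to 2949.5 CPM and to 2108 and 1716 CPM. After TAC in WT, where Vcam1 fell, the medians were 0.11 for the fibroblast and 0.00 for the macrophage and leukocyte markers. After TAC in HCN4F, where Vcam1 was at -0.04, they were 0.66 and 0.23. The part of these markers in the Vcam1 values was not tested. The comparisons after TAC in WT and between the TAC groups share the WT-TAC libraries. Groups that did not overlap, with HCN4F higher, were found for 11.3% of all genes between the TAC groups, and with HCN4F lower, as for Hey2, for 11%.

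Plvap (chr8:71497765-71511752, minus strand) followed a like order with a wider spread. It was at 11.8, 8.78, 8.03 and 13.5 CPM in WT-Sham, 7.15 and 4.32 CPM in WT-TAC, 11.5, 13.6, 7.30 and 9.12 CPM in HCN4F-Sham and 7.05, 16.5, 8.44 and 11.1 CPM in HCN4F-TAC. The TAC groups overlapped, with HCN4F-TAC replicate 1 just below the higher WT-TAC library. Its difference was 0.93 between the TAC groups (SE 0.37, interval 0.14 to 1.72, edgeR adjusted p = 0.323) and -0.90 after TAC in WT (SE 0.37, interval -1.69 to -0.11, edgeR adjusted p = 0.173). Leaving out WT-TAC replicate 3 or 2 moved the value between the TAC groups to 0.6 or 1.32 and that after TAC in WT to -0.56 or -1.28, and leaving out HCN4F-TAC replicate 2 moved the former to 0.63. Plvap passed after TAC in WT in 1 of 23 alternatives, DESeq2 on the compared groups (adjusted p = 0.00171). The endothelial selectins, which tether rolling leukocytes, were near the limit of counting. Sele, E-selectin, was 0.88 higher after TAC in HCN4F (interval 0.10 to 1.66, edgeR adjusted p = 0.126) and 1.30 higher in WT (interval 0.34 to 2.25, edgeR adjusted p = 0.103), where the value ran from 0.54 to 1.81 over the alternatives. Selp, P-selectin, was at 0.495 to 1.08 CPM in HCN4F-TAC and 0.164 and 0.487 CPM in WT-TAC, 1.03 higher (interval 0.03 to 2.03, edgeR adjusted p = 0.385), and this moved to 0.54 when replicate 2 of WT-TAC was left out and to 2.08 when replicate 3 was. Icam1 was between 0.19 and 0.24 in the 4 comparisons, with intervals that all included 0. Without HCN4F-Sham replicate 2 it was 0.04 between the Sham groups and 0.4 after TAC in HCN4F (edgeR adjusted p = 0.109). Selp is also stored in platelets, and the 7 platelet markers summed to 9.8 to 18.6 CPM in HCN4F-TAC and 8.4 and 10.7 CPM in WT-TAC. Their part was not tested.

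The pericyte genes are Pdgfrb, the receptor of PDGF-B, and Rgs5, a regulator of G protein signaling. Neither passed in the main edgeR fit. Pdgfrb was at 70.1 to 76.9 CPM in WT-Sham and 91.4 and 98.5 CPM in WT-TAC, with no overlap, as for 19.2% of all genes in this direction. It was 0.36 higher in WT-TAC (SE 0.13, interval 0.09 to 0.63, edgeR adjusted p = 0.112). With all libraries it passed in edgeR without a filter on low counts (adjusted p = 0.0384) and in fits on the compared groups alone, by edgeR (0.00704) and by DESeq2 (0.000565), and over all 23 alternatives the adjusted p ran up to 0.473. In HCN4F-Sham it was at 66.8, 102, 103 and 93.1 CPM, where replicate 1 was below all WT-Sham libraries and the other 3 above them. Rgs5 was at 369 to 580 CPM over all 14 libraries and between -0.11 and 0.11 on the log2 scale in the 4 comparisons.

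Without HCN4F-Sham replicate 1, the Sham groups differed in more of these genes. Of 38 members, 7 then passed in edgeR, all higher in HCN4F-Sham, where 3.72% of all tested genes passed and 2.01% passed as higher. These were Efnb2 with a log2 fold change of 0.77 (adjusted p = 0.00871), Pdgfrb with 0.42 (0.00676), Tek with 0.44 (0.0185), Fli1 with 0.53 (0.0185), Erg with 0.52 (0.0309), Esm1 with 1.02 (0.0385) and Ptprb with 0.41 (0.0435). Over the 38 genes, 31 fold changes were above 0 without replicate 1 and 28 with it, and the median was 0.24 and 0.15. Without replicate 2, in which the pan-endothelial genes were highest, the change went the other way: the median was 0.05, 26 fold changes were above 0, and 0 of 38 passed in edgeR, where 0.347% of all genes did. Tek was then at 0.13, Ptprb at 0.17, Erg at 0.19 and Fli1 at 0.26. Without both replicates 1 and 2, which leaves 2 HCN4F-Sham libraries, 3 of 38 passed as higher, Efnb2, Pdgfrb and Tek, where 4.64% of all genes passed. After TAC in HCN4F, 4 of 38 passed without replicate 1, where 13.6% of all genes did: Hey2 with -0.63 and Esm1 with 0.73 again, and Tek with -0.38 and Fli1 with -0.37. The genotype difference in Sham hearts and the TAC response in HCN4F share these libraries.

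**Figure D5:**
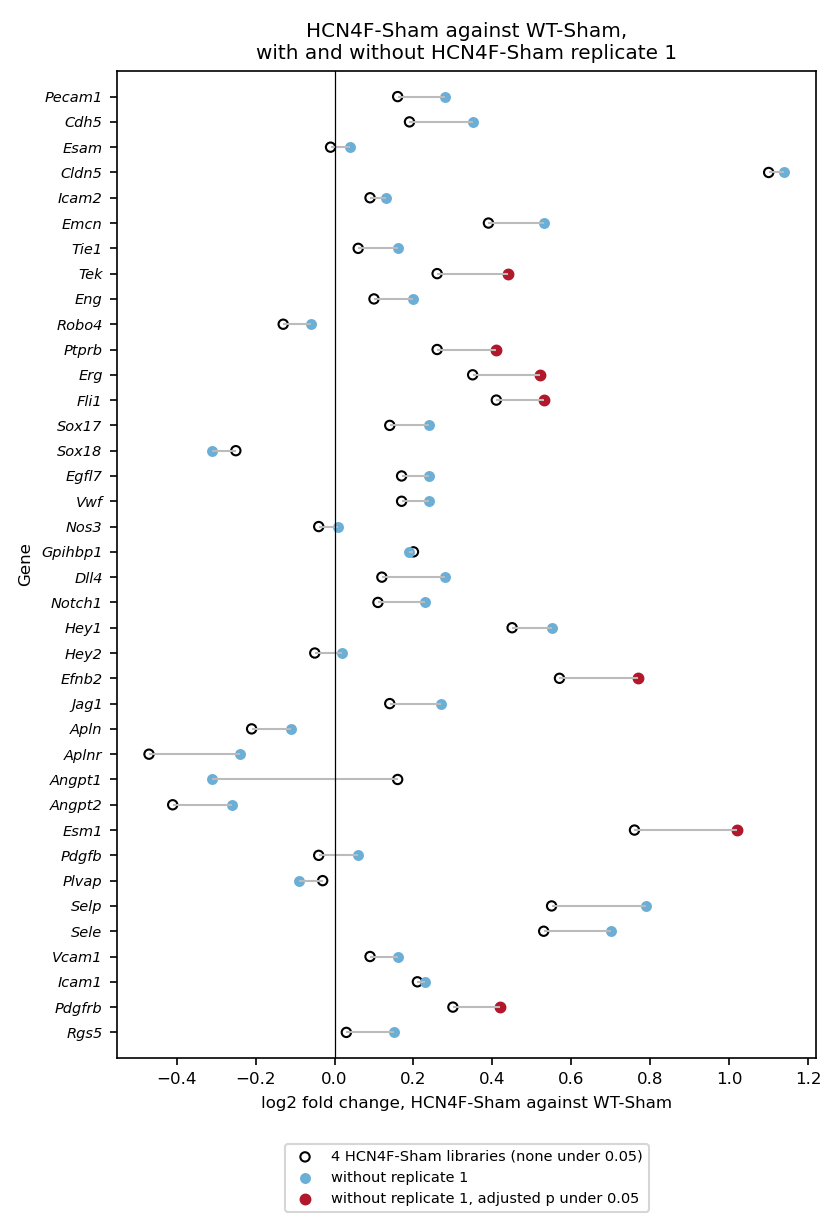
Log2 fold changes of HCN4F-Sham against WT-Sham for the 38 genes with all 4 HCN4F-Sham libraries (open circles) and without replicate 1 (filled), with red where the adjusted p was then under 0.05. Most genes shift to the right, the 7 red genes lie between 0.41 and 1.02, and Angpt1 crosses 0 to the left.

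Other genes of the vessel wall were taken from lists that share few or none of the 38. Of 16 sprouting and tip cell genes, 4 of them members, 5 passed as higher after TAC in HCN4F and 0 as lower in edgeR, where 7.2% of all genes passed as higher. The median of the list was 0.32 after TAC in HCN4F and 0.27 after TAC in WT. The basement membrane collagens Col4a1 and Col4a2 were both 0.74 higher (adjusted p = 0.000415 and 0.000245), Trp53i11 was 0.60 higher (0.0302), and the laminin chain Lamb1 was 0.25 higher (0.0328). After TAC in WT, Col4a2 with 0.51 (0.0319) and Lamb1 with 0.44 (0.0158) passed. Fibroblasts make these matrix genes too, and 7 of 12 fibroblast markers passed as higher after TAC in HCN4F, among them Postn with 2.07 (0.00189), while 0 passed as higher and 1, Dpt, as lower in WT. The part of fibroblast transcripts was not tested.

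Of 15 capillary genes, 2 passed as lower after TAC in HCN4F, where 6.41% of all genes did: Fabp4, a fatty acid binding protein, with -0.49 (edgeR adjusted p = 0.0498), and lipoprotein lipase, Lpl, with -0.26 (0.0496). The median of the list was -0.27 in HCN4F and 0.00 in WT. In HCN4F it was -0.39, -0.19 or -0.3 without HCN4F-Sham replicate 1, 2 or both, with 5, 1 or 0 of the 15 passing as lower in edgeR. Of all genes, 13.6% passed in either direction without replicate 1, and the share in the other settings is not given here. Tcf15, a transcription factor of cardiac capillary endothelium, differed between the Sham groups, 1.00 higher in HCN4F (SE 0.12, edgeR adjusted p = 0.000276). Of 15 arterial genes, Clu, with 0.40 (0.00158), and Ltbp4, with 0.34 (0.0399), passed as higher after TAC in HCN4F, and between the Sham groups Clu was at -0.40 in HCN4F (adjusted p = 0.0202). Clu is made by many cell types. Of 13 pericyte and mural genes, 0 passed after TAC in HCN4F and 1, Rgs4 with -0.50 (0.0338), after TAC in WT. The endocardial list, 7 of whose 8 genes were tested, had a median of -0.71 after TAC in WT and 0.07 after TAC in HCN4F, and none of its genes passed in edgeR. The venous list, of which 9 of 10 genes were tested and 3 are members, had Bgn, a matrix proteoglycan, higher after TAC in HCN4F with 1.27 (adjusted p = 0.000445) and, in WT, Vcam1 lower. Of the 7 lymphatic genes tested, Pdpn passed after TAC in HCN4F with 0.66 (0.015) and 0 passed after TAC in WT. Of 10 smooth muscle genes, Synpo2 with 0.52 (0.0313) and Smtn with -0.36 (0.0486) passed after TAC in WT and 0 passed in HCN4F. Of all genes, 7.2% were called higher after TAC in HCN4F and 4.54% in either direction after TAC in WT.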

How the data were processed

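The authors deposited raw counts, the whole number of reads per gene in each library, with no normalization. Per the labels, polyA-selected RNA from shock-frozen tissue was used and the build is GRCm38. The aligner, the counting program, the annotation release and the use of strand are not given in the sources used here. Of 49315 rows, 174 had a gene ID and no gene name. The 2 further columns of per-sample values matched no sample and were not used. The paper states 4 biological replicates in each group, while the labelled samples hold 2 of WT-TAC. Genes were filtered with filterByExpr, scaled with TMM and fitted over all 4 groups in edgeR 4.0.16 (R 4.3.3, robust quasi-likelihood test). DESeq2 1.42.0 was an alternative. In simulated counts with 200 changed genes, the steps were tested and recovered known changes. Coordinates and exon lengths are from GENCODE release M21. Members and lists were chosen with earlier results of these data known. Values in every library are given for members that passed in any comparison or, where none passed, for the 2 with the smallest p, and for further members by range or where libraries stood apart. From other lists only some passing genes were named, at most 4 per list and comparison, and Arntl and Dbp were chosen after their values were seen. The alternatives were DESeq2 and edgeR on all or on the compared groups, other scaling and filters, non-robust estimation, the replicate number as a block, an additional log2 fold threshold of 1 and each library left out. The replicates are separate samples, and the p-values set a difference against the spread between them. In the main fit this spread was estimated for each gene over all 4 groups together. The groups differed in it: the median coefficient of variation of the members was 22.1% in HCN4F-Sham and 10.3% in WT-Sham.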

Additional observations from a re-analysis of the deposited data

Results flagged for a closer look

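In 4 of 114 groups of 4 libraries, 1 library of a member stood apart from the other 3 by more than Dixon's 95% critical value. Chance flags about 1 in 20 groups. HCN4F-Sham replicate 1 was such a library for 3 genes: Efnb2 at 24.7 CPM against 48.9 to 53.9 CPM, Sox17 at 17.8 CPM against 23.5 to 24.4 CPM, and Angpt1 at 35.8 CPM against 14 to 14.6 CPM. WT-Sham replicate 3 was the other, for Esam, at 62.2 CPM against 70.0 to 71.4 CPM.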

How the results depend on the processing

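The median log2 fold change of the 38 genes moved by less than the within-group SD of the library score (0.15) in each alternative of the 4 comparisons: over single libraries left out it ran from -0.16 to 0.02 after TAC in HCN4F, -0.04 to 0.07 after TAC in WT, 0.05 to 0.24 between the Sham groups and -0.01 to 0.15 between the TAC groups. The count of members passing ran, over the same settings, from 1 to 4, 0 to 3, 0 to 7 and 0 to 1 in that order, and was 0 throughout for the interaction. After TAC in HCN4F it was 1 without HCN4F-Sham replicates 1 and 2, a setting added after seeing the data, and 0 with a log2 fold change past 1 also required in edgeR. After TAC in WT it was 3 with DESeq2 on all groups, where 8.66% of all genes passed, and 5 with edgeR and 8 with DESeq2 on the compared groups. The shares of all genes in the fits on the compared groups are not given here, so these 2 counts cannot be set beside them. Also after TAC in WT it was 3 without a filter, 2 with non-robust estimation, 3 without HCN4F-Sham replicates 1 and 2, and 0 with a log2 fold change past 1 also required in edgeR. Between the Sham groups it was 1 with DESeq2 on all or on the compared groups and 3 without HCN4F-Sham replicates 1 and 2. Between the TAC groups it was 1 with either DESeq2 fit and 1 without a filter. The cause was not tested. Among the gene values followed over all alternatives, signs turned in 3, none of which had passed. Cldn5 after TAC in HCN4F was -0.14 without HCN4F-TAC replicate 3 (range over single libraries left out -0.14 to 0.37). Vcam1 there was 0.04 without HCN4F-Sham replicate 4 (-0.12 to 0.04). The interaction of Esm1 was 0.46 without WT-TAC replicate 3 (-0.6 to 0.46). Values not followed in this way turned too, such as Angpt1 between the Sham groups, at 0.16 with all libraries and -0.31 without HCN4F-Sham replicate 1. Same-numbered libraries did not deviate together: 18 pairs correlated at -0.181 to 0.219, with 3 over 0.1. With the replicate number as a block, the count of members passing was 2 after TAC in HCN4F, 0 after TAC in WT (Vcam1, -0.47, adjusted p = 0.073), 0 between the Sham groups and 0 between the TAC groups. Depth limits Selp, Sele and Esm1 most.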
